A study of Mus musculus with 6 samples.

Results

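The 45 genes described here are cell cycle and proliferation genes, read in RNA of lung cells enriched for endothelial cells (ECs). They were taken by gene symbol from a set that was put together with earlier results of these data known. Of them, 19 act mainly in S phase, when DNA is copied, and 26 in G2 and mitosis (G2/M), when the copied chromosomes are condensed and pulled apart. All 45 symbols matched 1 gene each among the 47729 genes counted, and all 45 were among the 14625 genes with enough counts to be tested. The RNA came from EC-enriched lung cells of male mice aged 14 weeks, in 3 wild-type (WT) and 3 leene-KO (KO) libraries. The KO mice lack, in every cell of the body, the region that corresponds to the human long noncoding RNA gene LEENE, on the C57BL6 background, and the WT mice were their littermates. Both groups received Angiotensin II (AngII), a peptide that raises blood pressure, at 1000 ng/kg/min for 2 weeks from an osmotic pump, and no library came from mice without AngII. ECs were enriched with magnetic beads against CD31 according to the sample labels and against CD144 according to the methods of the study. The labels also describe pooling of cells from 3 mice in each group, so each library may hold cells of 1 mouse or of several, and n below counts libraries.

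A dividing cell switches on its genes in waves. E2F factors, once freed from the retinoblastoma family, drive the S-phase genes that load and run the MCM replicative helicase and make nucleotides. Later, B-MYB and FOXM1, acting with the MuvB core, drive the G2/M genes that encode cyclin B, mitotic kinases, spindle motors and the partners of the anaphase-promoting complex. In resting cells the same MuvB core sits in the DREAM complex, which keeps both waves low, and p21 (Cdkn1a) favors its formation by inhibiting cyclin-dependent kinases. Most ECs of the adult lung are at rest, so transcripts of the G2/M wave are usually scarce in this tissue.

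The leene genes were not analysed here, so the genotype labels were not checked against them. Total counts were 24464324 to 35184063 per WT library and 26159650 to 29189294 per KO library. Between 37.4% and 54.5% of the WT counts and between 38.2% and 46.2% of the KO counts were mitochondrial. All 15 EC markers were detected in each library, with summed levels of 2601 to 4619 CPM (counts per 1000000 counts of the scaled library) in WT and 2939 to 4673 CPM in KO. Markers of alveolar type II cells, an epithelial cell, were also abundant, with sums of 5428, 50661 and 15635 CPM in WT and of 40028, 48640 and 39333 CPM in KO. In every library this sum exceeded the EC marker sum. The same held for ciliated and club cell markers, at 10222 to 24064 CPM in WT and 21923 to 35324 CPM in KO. The share of ECs among the cells was not measured. The 10 B cell markers summed to 14.1 to 30.2 CPM in WT and 102 to 110 CPM in KO. All 10 had a log2 fold change above 0, against 54.1% of all genes tested. Transcripts of other cell types were thus present. In bulk RNA, fewer dividing cells and less RNA per dividing cell cannot be told apart.

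The G2/M genes were lower in KO than in WT as a group, and the S-phase genes were lower by a smaller amount. Summed over the 26 G2/M genes, the level was 91.2, 103 and 160 CPM in WT libraries 1 to 3 and 75.0, 52.8 and 50.7 CPM in KO libraries 1 to 3. The mean was 118 ± 36.6 CPM in WT and 59.5 ± 13.5 CPM in KO (SD, n = 3 libraries each), a KO-to-WT ratio of 0.505. Every KO library lay below every WT library on this sum. For the 19 S-phase genes the sum was 138, 113 and 152 CPM in WT and 119, 103 and 110 CPM in KO, with a ratio of 0.826 between the means of 134 ± 19.9 and 111 ± 8.11 CPM. On this sum the groups overlapped, because KO library 1 lay above WT library 2.

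The sums are weighted toward abundant genes, so the mean log2 CPM over the genes of each phase was also taken in each library. For the G2/M genes it was 1.45, 1.67 and 2.20 in WT and 1.13, 0.66 and 0.67 in KO. For the S-phase genes it was 1.87, 1.68 and 2.17 in WT and 1.67, 1.52 and 1.44 in KO. The S-phase mean less the G2/M mean was therefore 0.42, 0.01 and -0.03 in WT and 0.53, 0.86 and 0.77 in KO. These differences averaged 0.13 ± 0.25 in WT and 0.72 ± 0.17 in KO, so that the distance between the phases was 0.59 wider in KO on the log2 scale, and the groups did not overlap. No test was made on these means, since the genes were chosen as a set with results of these data known, and 3 libraries against 3 could not reach an exact permutation p below 0.1.

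**Figure D1:**
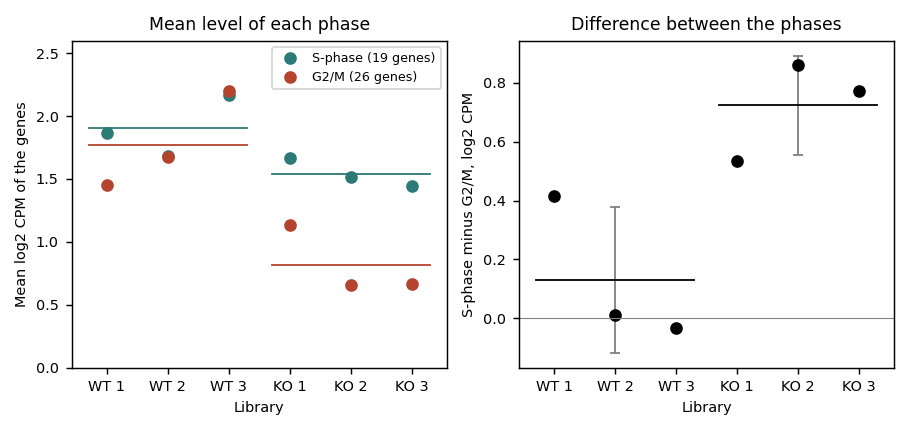
The left panel plots the mean log2 CPM of the 19 S-phase and the 26 G2/M genes in each library, with lines at the group means, and the right panel plots their difference with the group mean and SD (n = 3 libraries). The G2/M points of the KO libraries lie at 1.13 or lower and those of WT at 1.45 or higher, while the difference between the phases reaches 0.42 at most in WT and is 0.53 or more in KO.

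Of the 45 genes, 42 had a log2 fold change below 0 (26 of 26 G2/M and 16 of 19 S-phase), and 3 above 0, against 45.9% and 54.1% of all genes tested. The Mcm7 value, which rounds to 0.00, is among these 42. The median log2 fold change was -0.94 over the G2/M genes, with a range of -1.94 to -0.53, and -0.39 over the S-phase genes, with a range of -1.53 to 0.63. The median over all 14625 genes was 0.03, and the central 90% of them lay between -0.55 and 0.87. In edgeR's quasi-likelihood test 0 of the 45 genes had a Benjamini-Hochberg adjusted p under 0.05, a threshold that 0.0752% of all genes passed as lower and 0.0342% as higher in KO. At an unadjusted p under 0.05, 23 of the 45 were lower, comprising 18 G2/M and 5 S-phase genes, and 0 were higher, whereas 4.68% of all genes were lower and 5.62% higher at that threshold. DESeq2, the tool of the study, gave an adjusted p under 0.05 to 6 of the 45, all G2/M genes and all lower (Ube2c, Foxm1, Top2a, Kif23, Cenpf and Prc1), against 1.16% of all genes lower and 0.889% higher. For 22 of the 45 genes, 14 G2/M and 8 S-phase, every KO library lay below every WT library, and for 0 every KO library lay above, against 9.2% and 8.59% of all genes. Whether the phases differed in these counts was not tested.

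The size of these counts depended on single libraries. WT library 3 held the highest level of 34 of the 45 genes, including 22 of the 26 G2/M genes, and KO libraries 2 and 3 each held the lowest level of 17. Without WT library 3, the genes lower at an unadjusted p under 0.05 numbered 9 (4.04% of all genes in that fit), the G2/M median was -0.70, and all 26 G2/M genes still had log2 fold changes below 0. Without KO library 2 or KO library 3 they numbered 12 and 11 (3.36% and 3.32% of all genes), with G2/M medians of -0.89 and -1.0. Within WT, the libraries had the same order on the G2/M sum and on the EC marker sum of 2601, 3137 and 4619 CPM. KO library 1, the highest of its group for G2/M, held the highest EC marker sum of 4673 CPM. The G2/M sum of KO library 1 was 75.0 CPM, and that of WT library 3 was 160 CPM. KO libraries 2 and 3 had opposite orders, with EC marker sums of 2939 and 3838 CPM and G2/M sums of 52.8 and 50.7 CPM. WT library 3 also had the largest mitochondrial share, 54.5%. With the mean log2 CPM of the EC markers as a covariate the G2/M median was -1.11 and the S-phase median -0.45. That covariate was added after the data had been seen. With the mean of the alveolar type II markers as the covariate the medians were -1.02 and -0.21. The part of EC content in the G2/M levels was not tested.

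**Figure D2:**
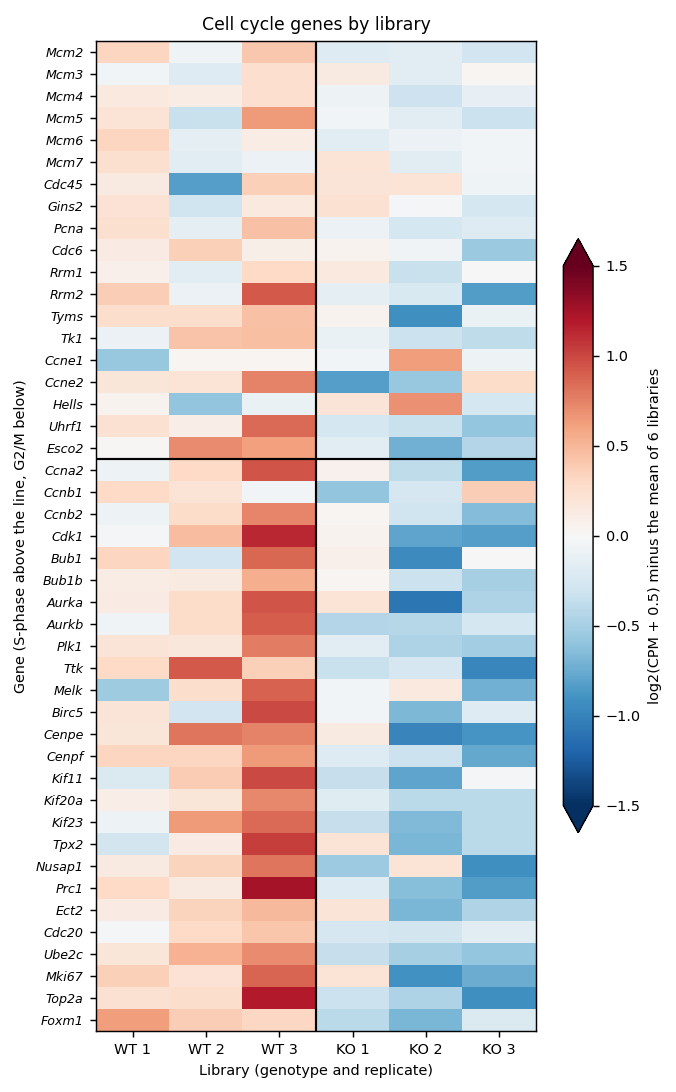
The heat map shows log2(CPM + 0.5) of each of the 45 genes in each library less the gene's mean over the 6 libraries, with S-phase genes above the horizontal line and G2/M genes below it. Most G2/M genes are above their mean in the WT libraries, most strongly in WT library 3, and below it in KO libraries 2 and 3, while several MCM genes stay near their mean in all 6 libraries.

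Among the G2/M genes, Mki67, Top2a and Foxm1 are the usual readouts of proliferation. Mki67, which encodes the Ki-67 protein that coats mitotic chromosomes, measured 12.8, 11.5 and 18.4 CPM in WT and 11.4, 5.0 and 5.69 CPM in KO. KO library 1 was just under the lowest WT library, and the other KO libraries were well below it. The log2 fold change of Mki67 was -0.95 (SE 0.34), with an adjusted p of 0.428 in the quasi-likelihood test and 0.179 in DESeq2. Top2a, the topoisomerase that untangles sister chromatids, measured 14.1, 14.5 and 28.0 CPM in WT and 9.50, 8.57 and 6.11 CPM in KO. WT library 3 had nearly the sum of the other WT libraries, and all KO libraries were below 10 CPM. Its log2 fold change was -1.22 (SE 0.31), with an adjusted p of 0.287 by quasi-likelihood and 0.0219 by DESeq2. Foxm1, the transcription factor of the G2/M wave, measured 4.68, 3.82 and 3.65 CPM in WT and 2.02, 1.58 and 2.38 CPM in KO. Here the highest library was WT library 1, and the groups were separated by more than the range within either. The log2 fold change of Foxm1 was -1.02 (SE 0.25), with an adjusted p of 0.285 by quasi-likelihood and 0.0194 by DESeq2.

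The cyclins and kinase that open mitosis had a median log2 fold change of -0.82, but for all 4 the groups overlapped. Cdk1, the kinase that triggers mitotic entry, measured 2.91, 4.29 and 7.07 CPM in WT and 3.09, 1.51 and 1.45 CPM in KO. KO library 1 exceeded WT library 1, and the remaining libraries were separated by genotype. Its log2 fold change was -1.23 (SE 0.43), with an adjusted p of 0.412 by edgeR. Ccna2 (cyclin A2, active from S phase to early mitosis) measured 4.21, 5.61 and 9.08 CPM in WT and 4.73, 3.31 and 2.28 CPM in KO, and Ccnb2 (cyclin B2) followed the same order with 1.84, 2.5 and 3.61 against 2.02, 1.51 and 1.07 CPM. Ccnb1 (cyclin B1) was counted at only 27, 20 and 9 reads in WT and 3, 8 and 21 reads in KO. Its log2 fold change of -0.53 had an SE of 0.64, and its direction therefore rests on little. Moreover, 42.1% of the 50-base stretches of the Ccnb1 transcript also occur in other annotated genes, mostly pseudogene copies, from which reads with several alignments were not counted.

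The partners of the anaphase-promoting complex, which marks cyclin B and securin for destruction, included the gene of lowest p. Ube2c, the ubiquitin-conjugating enzyme of the complex, measured 3.33, 4.35 and 5.01 CPM in WT and 2.15, 1.88 and 1.76 CPM in KO. No KO library came within 1 CPM of a WT library. Its log2 fold change was -1.13 (SE 0.25), with the lowest unadjusted p of the 45 genes, 0.00203, an adjusted p of 0.251 by quasi-likelihood and of 0.00622 by DESeq2. Of the 50-base stretches of Ube2c, 17.8% also occur in other annotated genes, so its level is less certain. Cdc20, an activator of the complex, measured 3.60, 4.58 and 5.01 CPM in WT and 2.97, 2.91 and 3.21 CPM in KO, again without overlap.

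The 7 mitotic kinases had a median log2 fold change of -1.06, and for 4 of them (57.1%) the groups did not overlap, against 9.2% of all genes lower without overlap. These were Aurkb (Aurora B, of the chromosomal passenger complex), Plk1 (Polo-like kinase), Bub1b and Ttk, the last pair being kinases or kinase-like proteins of the spindle checkpoint. Aurkb measured 1.44, 1.94 and 3.28 CPM in WT and 0.989, 0.993 and 1.17 CPM in KO. Plk1 measured 1.57, 1.53 and 2.58 CPM in WT and 1.12, 0.809 and 0.759 CPM in KO. Ttk, named here because its log2 fold change of -1.94 was the lowest of all 45, rested on 36, 55 and 20 reads in WT and 9, 12 and 2 reads in KO, and its SE was 0.64. Aurka (Aurora A), Bub1 and Melk were lower on average, with overlapping libraries. Aurka, for example, measured 1.59, 1.82 and 3.18 CPM in WT and 1.72, 0.405 and 0.897 CPM in KO.

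Spindle motors, spindle proteins and kinetochore proteins made up the largest group of 10 genes, with a median log2 fold change of -0.92. Of these, 7 had an unadjusted p under 0.05, against 4.68% of all genes lower at that threshold. For 5 the groups did not overlap, against 9.2% of all genes lower without overlap. Prc1, which bundles the microtubules of the central spindle, measured 5.41, 4.76 and 10.9 CPM in WT and 3.70, 2.57 and 2.17 CPM in KO. Kif23, the kinesin of the same structure, measured 2.94, 5.17 and 6.04 CPM in WT and 2.36, 1.80 and 2.24 CPM in KO. Both were thus lower in each KO library than in any WT library. The log2 fold change was -1.31 (SE 0.37) for Prc1, with adjusted p-values of 0.332 by quasi-likelihood and 0.045 by DESeq2. For Kif23 it was -1.13 (SE 0.31), with adjusted p-values of 0.318 and 0.0449 in the same order. Cenpf, a large kinetochore protein, measured 3.65, 3.67 and 4.68 CPM in WT and 2.41, 2.17 and 1.45 CPM in KO, for a log2 fold change of -0.99 (SE 0.27). Its adjusted p was 0.318 by quasi-likelihood and 0.045 by DESeq2. The kinetochore motor Cenpe and the cytokinesis kinesin Kif20a did not overlap either, although 31.2% of the 50-base stretches of Kif20a also occur in another annotated gene and make its level uncertain. Kif11, the motor that separates the spindle poles, measured 2.45, 3.93 and 6.27 CPM in WT and 2.19, 1.47 and 2.86 CPM in KO. Its groups overlapped through KO library 3, and those of Nusap1, Tpx2, Birc5 (survivin) and Ect2, the activator of RhoA in cytokinesis, overlapped as well.

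**Figure D3:**
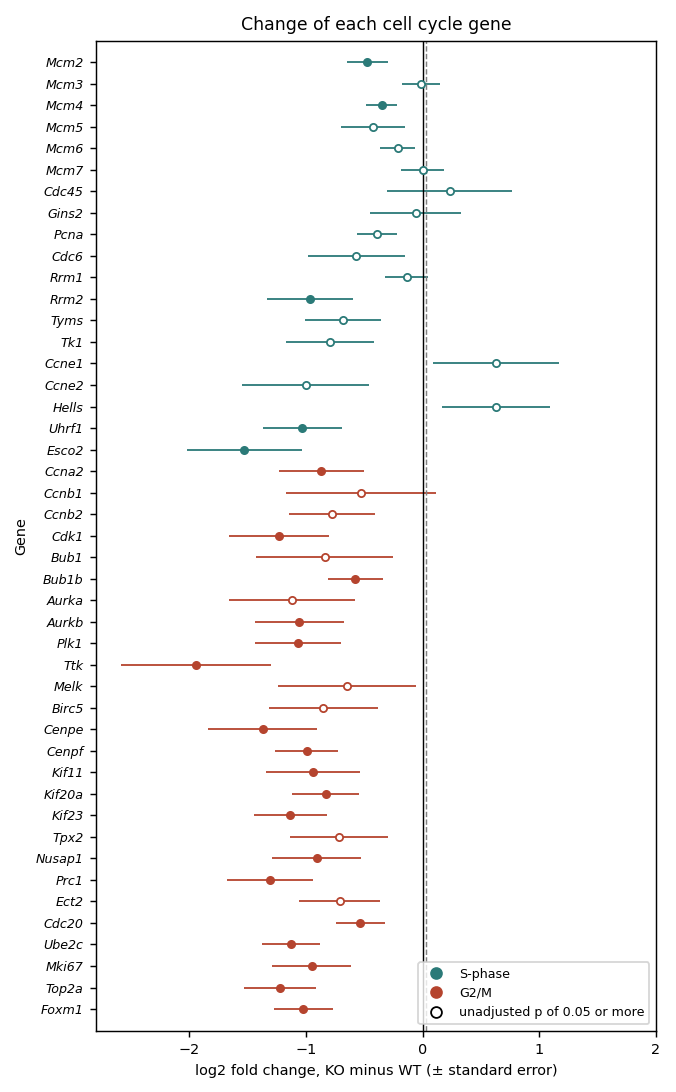
Each point is the log2 fold change of KO against WT of 1 of the 45 genes in edgeR's quasi-likelihood fit, with its standard error as the bar, S-phase genes in green and G2/M genes in red, open where the unadjusted p is 0.05 or more. The dashed line marks the median of all genes tested, 0.03, and all 26 G2/M points lie to its left, from -1.94 to -0.53, whereas S-phase points lie on either side.

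The most abundant S-phase genes exceeded every G2/M gene in level per length. Per kilobase of exon, Pcna stood highest, with 7.17 CPM per kb in WT and 5.46 in KO, and Rrm1, Mcm4, Mcm6 and Mcm3 followed between 4.25 and 4.52 CPM per kb in WT. The highest G2/M genes on that scale were Cdc20 at 2.35 and Top2a at 2.09 CPM per kb in WT. Since Pcna, the sliding clamp of DNA polymerase, shares 31.8% of its 50-base stretches with a pseudogene, its level is uncertain. Pcna measured 17.7, 13.5 and 20.4 CPM in WT and 14.0, 12.4 and 12.9 CPM in KO, for a log2 fold change of -0.39 (SE 0.18) and an adjusted p of 0.498 by edgeR. KO library 1 was above WT library 2, so that the groups overlapped.

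The 8 subunits of the replicative helicase, which unwinds DNA at the fork, had a median log2 fold change of -0.14. Mcm2 measured 11.5, 8.63 and 12.1 CPM in WT and 7.87, 7.98 and 7.35 CPM in KO. Mcm4 measured 15.7, 15.4 and 17.0 CPM in WT and 13.4, 11.3 and 13.0 CPM in KO. These were the helicase genes without overlap, and their log2 fold changes of -0.47 (SE 0.17) and -0.35 (SE 0.13) had adjusted p-values of 0.437 and 0.455 by quasi-likelihood. Mcm3, in contrast, measured 15.3, 13.7 and 18.9 CPM in WT and 17.4, 13.9 and 16.0 CPM in KO. Mcm7 measured 11.5, 8.54 and 9.08 CPM in WT and 11.2, 8.61 and 9.35 CPM in KO, and the means of either gene differed by far less than their SDs. Mcm6 averaged 20.7 ± 3.36 CPM in WT and 17.9 ± 0.768 in KO, and Mcm5 6.4 ± 2.27 and 4.74 ± 0.519 CPM (SD, n = 3). Cdc45 and Gins2, which join the MCM ring at firing, lay at about 1 CPM and did not separate the groups. Gins2 shares 70.3% of its 50-base stretches and Mcm7 34.2% with other annotated genes, so their levels are uncertain. The search covered both strands and, as for Kif20a, did not tell a gene overlapping at the same place from a copy elsewhere.

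Genes of nucleotide supply had a median log2 fold change of -0.74. Rrm2, the regulated subunit of ribonucleotide reductase, measured 3.82, 2.64 and 5.85 CPM in WT and 2.54, 2.35 and 1.38 CPM in KO, for a log2 fold change of -0.97 (SE 0.37) and an adjusted p of 0.458 by quasi-likelihood. Rrm1, the large subunit of the same enzyme, measured 18.1, 15.1 and 21.1 CPM in WT and 18.9, 13.4 and 17.0 CPM in KO. Rrm2 thus separated the groups and Rrm1 did not, although the difference between the subunits was not tested. Tyms and Tk1, which make thymidine nucleotides, were lower in every KO library than in any WT library, with means of 3.73 and 2.32 CPM for Tyms and 1.44 and 0.828 CPM for Tk1 in WT and KO.

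The lowest S-phase values belonged to genes of chromatin and cohesion. Esco2, the acetyltransferase that locks cohesin onto sister chromatids, measured 0.759, 1.53 and 1.40 CPM in WT and 0.602, 0.257 and 0.414 CPM in KO. Uhrf1, which passes DNA methylation on to the new strand, measured 2.25, 2.03 and 3.75 CPM in WT and 1.46, 1.36 and 1.07 CPM in KO. Neither gene overlapped, and the log2 fold changes were -1.53 (SE 0.49) for Esco2 and -1.03 (SE 0.34) for Uhrf1, with adjusted p-values of 0.387 and 0.388 by edgeR. Other annotated genes share 18.9% of the 50-base stretches of Uhrf1, so its level is less certain. Hells, a chromatin remodeler, had a mean in the other direction, with 1.2, 0.587 and 1.03 CPM in WT and 1.38, 2.13 and 0.862 CPM in KO, with overlapping groups. Ccne1, the cyclin of S-phase entry, measured 0.294, 0.705 and 0.702 CPM in WT and 0.645, 1.32 and 0.621 CPM in KO. Its log2 fold change of 0.63 had an SE of 0.54 and an adjusted p of 0.68 by edgeR, so a direction was not detectable in these libraries. Ccne2, its paralog, averaged 1.48 CPM in WT and 0.723 CPM in KO, and Cdc6, which loads the helicase, 1.10 and 0.747 CPM.

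Because the phases are driven through different promoter elements, the RefSeq promoter windows of the genes (GRCm38.p6, 250 bases before to 50 after the start) were searched on both strands. The letters searched were TTTGAA for the cell cycle genes homology region (CHR, the element read by the MuvB complexes), CCAAT for the CCAAT box (read by NF-Y), and TTTGGCGC, TTTGCCGC, TTTCGCGC or TTTCCCGC for E2F elements. A window was held for 36 of the 45 genes, and none for Ccna2, Aurkb, Kif20a, Tpx2, Mcm4, Ccne2, Gins2, Esco2 and Foxm1. To show the elements, 6 stretches of the 120 bases before the start are given 5′ to 3′ on the gene's strand, with matches to any of these letters on either strand in capitals. Ube2c, Top2a and Cdk1 are G2/M genes with CHR and CCAAT matches. Mcm2 is an S-phase gene with a CHR match, and Mcm6 and Hells are S-phase genes with E2F matches. The stretches are chr2:164769809-164769928 on the plus strand for Ube2c, chr11:99024190-99024309 on the minus strand for Top2a, chr10:69352913-69353032 on the minus strand for Cdk1, chr6:88898781-88898900 on the minus strand for Mcm2, chr1:128359706-128359825 on the minus strand for Mcm6 and chr19:38930870-38930989 on the plus strand for Hells.
Ube2c: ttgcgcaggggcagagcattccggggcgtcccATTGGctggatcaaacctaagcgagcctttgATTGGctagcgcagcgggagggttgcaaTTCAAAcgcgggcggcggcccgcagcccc
Top2a: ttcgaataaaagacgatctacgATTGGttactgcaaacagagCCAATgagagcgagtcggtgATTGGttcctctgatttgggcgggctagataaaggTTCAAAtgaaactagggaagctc
Cdk1: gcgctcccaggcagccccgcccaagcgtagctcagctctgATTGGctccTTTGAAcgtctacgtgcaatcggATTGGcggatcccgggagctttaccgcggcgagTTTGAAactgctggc
Mcm2: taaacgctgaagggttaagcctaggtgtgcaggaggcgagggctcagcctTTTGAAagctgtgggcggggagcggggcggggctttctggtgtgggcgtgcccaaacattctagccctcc
Mcm6: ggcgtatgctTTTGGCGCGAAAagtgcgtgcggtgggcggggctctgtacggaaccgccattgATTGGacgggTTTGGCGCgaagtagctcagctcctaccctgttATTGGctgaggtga
Hells: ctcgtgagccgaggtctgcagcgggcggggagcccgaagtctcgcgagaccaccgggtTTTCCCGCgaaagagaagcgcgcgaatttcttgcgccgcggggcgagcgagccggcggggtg
The first run of capitals in Mcm6 joins overlapping E2F matches of opposite strands.

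CHR letters were found in 15 of 21 G2/M windows (71.4%) and 2 of 15 S-phase windows (13.3%), against 18.1% of the 27025 windows searched. CCAAT letters were found in 18 of 21 (85.7%) and 10 of 15 (66.7%), against 37.9%. E2F letters were found in 1 of 21 (4.76%) and 6 of 15 (40%), against 2.32%. The 1 G2/M gene was Cdk1, whose match began 131 bases before the start, outside the stretch printed. The median log2 fold change was -1.07 over the 15 G2/M genes with CHR letters and -0.85 over the 6 without, and -0.11 over the 6 S-phase genes with E2F letters and -0.47 over the 9 without. The 2 S-phase genes with CHR letters were Mcm2, with a log2 fold change of -0.47, and Cdc45, with 0.23. Their median was -0.12, against -0.39 over the 13 S-phase genes without such letters. These are descriptions of letters in a window, and binding was not measured.

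Further cell cycle genes outside the 45 were read from the same fit. Of 34 other G2/M genes tested, 31 had log2 fold changes below 0, the median was -0.42, and 11 (32.4%) were lower at an unadjusted p under 0.05, with 0 higher. Of all genes tested, 45.9% were below 0 and 4.68% were lower at that threshold. DESeq2 gave an adjusted p under 0.05 to Anln and Tubb4b of the list, against 1.16% of all genes lower in KO. Anln, the anillin of the contractile ring, measured 5.41, 8.37 and 6.42 CPM in WT and 3.95, 2.94 and 2.62 CPM in KO. Its log2 fold change was -1.09 (SE 0.25), with an adjusted p of 0.259 by quasi-likelihood and 0.00998 by DESeq2. Tubb4b, a beta-tubulin that resting cells also express, had a log2 fold change of -0.46 (SE 0.11). The other 9 included Nuf2 of the kinetochore, with a log2 fold change of -1.28 (SE 0.42), Cdca8 of the chromosomal passenger complex, with -1.14 (SE 0.34), and the kinesin Kif20b, with -1.14 (SE 0.38). Kif2c, a kinesin that takes microtubules apart, had -2.31 (SE 0.92), and KO library 2 held no read of it. The remaining 5 had log2 fold changes of -1.31 (SE 0.54) for Ckap2, -1.09 (SE 0.43) for Gas2l3, -0.96 (SE 0.38) for Pimreg, -0.79 (SE 0.32) for Ckap2l and -0.56 (SE 0.18) for Rangap1. Of 28 other S-phase genes tested, 17 were below 0, the median was -0.08, and 2 (7.14%) were lower at an unadjusted p under 0.05, a share near the 4.68% of all genes. These were the histone chaperone Nasp, with a log2 fold change of -0.45 (SE 0.18), and the ATPase Atad2, with -0.51 (SE 0.20). In this list 4 genes (14.3%) were lower and 2, Rpa2 and Tipin, were higher in every KO library than in any WT library. Over all genes tested these shares were 9.2% and 8.59%. The wider lists thus showed a G2/M median below the S-phase median, as the 45 genes did, with smaller values. They were read from the same 6 libraries and chosen with earlier results known, so they are not independent of the 45 genes.

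**Figure D4:**
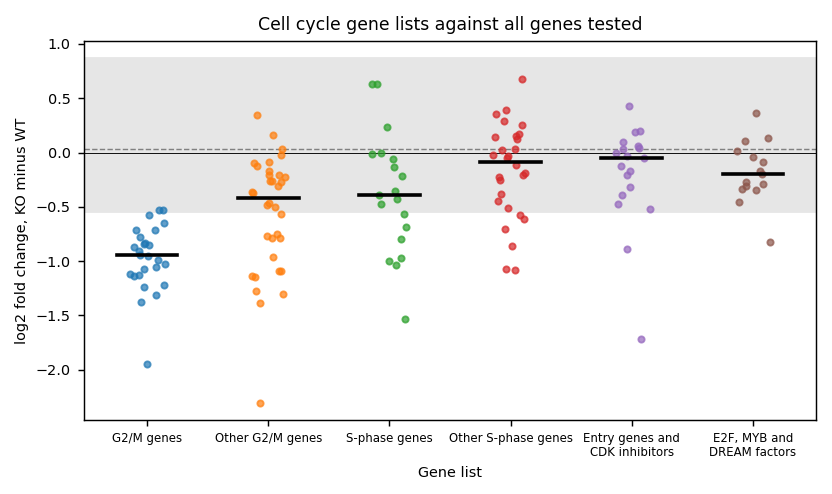
Points are the log2 fold changes of single genes in 6 cell cycle lists, thick bars are list medians, the dashed line is the median of all genes tested (0.03) and the grey band spans their central 90%, from -0.55 to 0.87. The medians are -0.94 and -0.42 for the 2 G2/M lists, -0.39 and -0.08 for the 2 S-phase lists, and -0.05 and -0.19 for entry genes with CDK inhibitors and for E2F, MYB and DREAM factors.

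The genes that decide on cell cycle entry included Cdkn1a, which encodes the CDK inhibitor p21. It was the only gene of the cell cycle lists that was lower at the adjusted threshold of the quasi-likelihood test. Over all genes tested, 0.0752% were lower in KO at that threshold. Cdkn1a measured 149.7, 156 and 156 CPM in WT and 51.4, 42.0 and 47.5 CPM in KO. The groups were far apart, with means of 154 ± 3.8 and 47.0 ± 4.68 CPM (SD, n = 3). The log2 fold change was -1.71 (SE 0.14), with an adjusted p of 0.0168 in edgeR's test, which rose above 0.05 when any KO library was left out or the replicate number was a block, to 0.159 at most. Cdkn1b (p27) measured 36.2, 36.4 and 33.6 CPM in WT and 36.2, 36.6 and 36.4 CPM in KO, and its log2 fold change was 0.04 (SE 0.11). Of the D cyclins, which start the cycle, Ccnd2 averaged 253 ± 23.7 CPM in WT and 176 ± 12.0 in KO and Ccnd3 99.3 ± 14.4 and 75.7 ± 3.83 CPM, while Ccnd1, the most abundant, averaged 470.0 ± 106 and 431 ± 67.1 CPM. The groups did not overlap for Ccnd2 and Ccnd3 and did for Ccnd1. By log2 fold change, Ccnd2 was at -0.52 (SE 0.16, adjusted p of 0.365 by quasi-likelihood and 0.0243 by DESeq2), Ccnd3 at -0.39 (SE 0.15), and Ccnd1 at -0.13 (SE 0.23). Myc, which drives cell growth, had -0.89 (SE 0.34), with overlapping groups, and Cdkn1c (p57) had -0.48 (SE 0.19), without overlap. The values of Cdkn1b and Ccnd1 changed sign in some of the other settings. Over all 19 genes of this list the median was -0.05, with 12 below 0, 5 lower at an unadjusted p under 0.05 and 0 higher. Of all genes tested, 45.9% were below 0, and 4.68% were lower and 5.62% higher at that threshold.

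Among 15 tested factors of the E2F, MYB and DREAM families the median log2 fold change was -0.19, with 11 below 0, against 45.9% of all genes. E2f7, a repressor that is itself made in S phase, measured 2.3, 1.5 and 3.04 CPM in WT and 1.29, 1.14 and 1.41 CPM in KO, for a log2 fold change of -0.82 (SE 0.34) and an adjusted p of 0.482 by quasi-likelihood. E2f4 and E2f6, which mostly repress, also had an unadjusted p under 0.05, with log2 fold changes of -0.31 (SE 0.11) and -0.35 (SE 0.13). E2f1, an activator, averaged 4.02 ± 0.521 CPM over the WT libraries and 2.91 ± 0.595 over the KO libraries (log2 fold change -0.46, SE 0.24), and Mybl2 had too few counts to be tested.

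Other cells in the samples can divide too, so the marker lists of other cell types were set beside the G2/M sum, which was lower in KO. B cell markers had a median log2 fold change of 2.36, T cell markers of 0.66 (9 of 9 tested above 0), platelet markers of 0.76 (6 of 6), alveolar type II markers of 0.75 (8 of 8), ciliated and club cell markers of 0.40 (5 of 6) and macrophage markers of 0.30 (7 of 10). Erythroid markers had a median of 0.14 (5 of 6 tested above 0), neutrophil markers of 0.04 (3 of 6), EC markers of 0.12 (11 of 15) and mesenchyme markers of -0.06 (3 of 8). Of all genes tested, 54.1% were above 0. Marker levels do not show how many cells of a type were dividing. The summed level ran from 5.02 to 10.04 CPM in WT and 11.5 to 16.1 CPM in KO for T cells, from 28.7 to 42.9 and 38.8 to 77.5 CPM for platelets, and from 160 to 453 and 254 to 558 CPM for macrophages. For neutrophils it ran from 30.5 to 82.0 CPM in WT and 52.3 to 59.8 CPM in KO, for erythroid cells from 61.8 to 101 and 65.8 to 102 CPM, for mesenchyme from 445 to 792 and 504 to 719 CPM, and for ciliated and club cells from 10222 to 24064 and 21923 to 35324 CPM. The neutrophil markers Ly6g, Elane and Mpo had no read in at least 1 library. For alveolar type II cells the marker sums of libraries 1 to 3 were 5428, 50661 and 15635 CPM in WT and 40028, 48640 and 39333 CPM in KO. The G2/M sums in the same order were 91.2, 103 and 160 CPM in WT and 75.0, 52.8 and 50.7 CPM in KO. The part of these cells in the result was not tested.

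**Figure D5:**
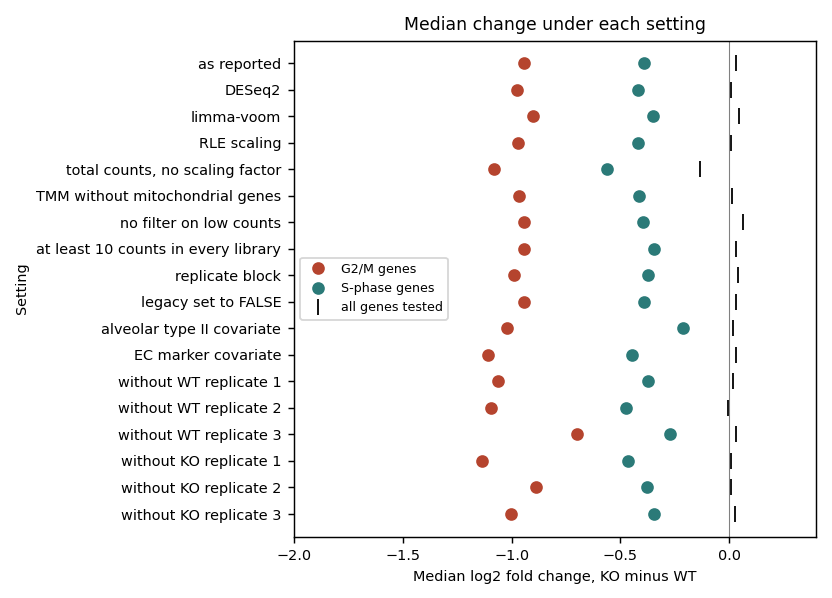
The plot gives the median log2 fold change of the G2/M genes, the S-phase genes and all genes tested under each way of processing the counts and with each library left out. The G2/M median stays between -1.14 and -0.70 and is below the S-phase median, which stays between -0.56 and -0.21, in every setting shown.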

How the data were processed

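RNA-seq was analysed from 3 WT and 3 KO libraries, grouped by the sample labels. The authors deposited raw counts of reads per gene, without normalization. Per the labels, the libraries were stranded and polyA-enriched, and STAR 2.5.4b and featureCounts of Subread 2.0.0 were used, with Ensembl release 84 on GRCm38 per the file headers. Reads with several alignments were not counted, so near-identical copies are uncertain. Symbols came from GENCODE for the same build, for 47224 of 47729 genes.

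The cell cycle genes and all gene lists were chosen with earlier results of these data known. Genes were filtered with filterByExpr, scaled by TMM and tested with glmQLFit and glmQLFTest of edgeR 4.0.16 (R 4.3.3), with genotype as the only term. Benjamini-Hochberg adjustment covered all 14625 genes tested. CPM was computed on TMM-scaled totals, and log2 CPM with a prior count of 2. Fold changes with an SE were given for genes past an adjusted p of 0.05 in either tool, for the 6 S-phase and 6 G2/M genes of lowest p, for Mki67, Top2a, Ccnb1, Cdk1, Pcna, Mcm2 and Ccne1, for genes of the wider lists with an unadjusted p under 0.05, and for Cdkn1a, Cdkn1b, Ccnd1 and E2f1, while Mybl2, also on that list, was not tested. Ttk, Rpa2 and Tipin were named after their values were seen. Alternatives were DESeq2 1.42.0, voom of limma 3.58.1, other scalings and filters, a replicate block, marker covariates and each library left out, of which the EC marker covariate was added after the data had been seen. The test was first run on simulated counts. No 2 libraries held identical counts. Total counts of 24464324 to 35184063 limit the precision together with the spread between libraries, and genes under 1 CPM rest on few reads. P-values measure the spread between libraries, which may be technical. Same-numbered WT and KO libraries deviated with correlations of -0.08, 0.22 and 0.01, so the numbers were not taken as pairs.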

Additional observations from a re-analysis of the deposited data

How the results depend on the processing

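All 26 G2/M genes had log2 fold changes below 0 in each setting run, except with at least 10 counts in every library, where 23 of 23 tested did. The count of the 45 genes with an adjusted p under 0.05 was 0 in edgeR, 6 in DESeq2, 2 with total counts, 2 without a filter on low counts (Prc1 and Top2a in both), and 0 to 2 with libraries left out, where the 2 (again Prc1 and Top2a) came without WT library 2. Genes without overlap ranged from 22 to 30, while the share of all genes without overlap and lower in KO rose from 9.2% to between 13.3% and 20.2%, the G2/M median from -1.14 to -0.70 and the S-phase median from -0.48 to -0.27 with libraries left out. Over all genes, calls numbered 16 in edgeR, 300 in DESeq2, 26 in limma-voom, 26 with RLE scaling, 123 with total counts, 152 without a filter, 49 with the alveolar type II covariate and 0 to 791 with libraries left out (0 without any 1 of the KO libraries, 791 without WT library 2). With the replicate number as a block the calls over all genes were 0, and 19 of the 45 genes, against 3.94% of all genes, were lower at an unadjusted p under 0.05. WT libraries 1 and 3 correlated best with another number than their own. Total counts moved the median of all genes from 0.03 to -0.13. The S-phase less G2/M difference of KO library 2 was 1.08 without Ccna2, Esco2, Foxm1 and Melk. The log2 fold change of Cdkn1b turned to -0.137 with total counts and ran from -0.0163 to 0.0504 with libraries left out, and that of Ccnd1 turned to 0.0173 with the alveolar type II covariate and ran from -0.306 to 0.0338. Of 677 comparisons of 40 named genes, 649 kept direction and side of the threshold. Since only Cdkn1a of these 40 was under 0.05 in the edgeR fit reported above, this count mostly reflects genes that stayed above it. Of the rest, 20 moved under the threshold, 4 reversed direction, and 4, all of Cdkn1a, moved above the threshold. The causes were not tested. Genes near 1 CPM, such as Ttk, Ccnb1 and Esco2, rest on few reads.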
